A study of Mus musculus with 24 samples.

Results

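The Slc38 family encodes membrane carriers of small neutral amino acids, and 9 of its genes were followed through kidney, left ventricle and skeletal muscle of mice at 86 and 16.5 weeks of age. The 9 genes, Slc38a1, Slc38a2, Slc38a3, Slc38a4, Slc38a6, Slc38a7, Slc38a9, Slc38a10 and Slc38a11, were picked by symbol from a table of 55401 genes. The table holds 11 Slc38 genes, and Slc38a5 and Slc38a8 were not among those picked. Each of the 9 passed the low-count filter in every comparison. Slc38a1 was already known from these libraries to lie lower in aged left ventricle when the family was chosen. The left ventricular values by age are therefore described with no p-value, and the count past the threshold given for them carries no weight.

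Slc38 proteins move glutamine, alanine and related amino acids, and at the plasma membrane most use the inward sodium gradient as the driving force. Slc38a1, Slc38a2 and Slc38a4 make up transport system A, which brings short-chain neutral amino acids into the cell, while Slc38a3 belongs to system N, which carries glutamine, asparagine and histidine and can run in both directions. Slc38a7 and Slc38a9 sit in the lysosomal membrane, where Slc38a7 exports glutamine and asparagine and Slc38a9 reports luminal arginine to the growth-regulating kinase complex mTORC1. In kidney, Slc38a3 supplies proximal tubule cells with glutamine for ammonia formation.

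The tissue came from C57BL6/J mice, an inbred laboratory strain, aged 86 weeks (4 mice) or 16.5 weeks (4 mice), with 2 males and 2 females at each age. Every mouse gave 1 library from each of the 3 tissues, which makes 24 libraries, and the labels name no allele or treatment. Neither the muscle sampled nor the region of the kidney is named in the labels. Total RNA was sequenced after removal of ribosomal RNA, and because each library is a whole piece of tissue, fewer cells of a type and less RNA per cell cannot be told apart. Total counts per library ran from 59199894 to 82924553 in kidney, 52602585 to 93826618 in left ventricle and 59073289 to 103797551 in skeletal muscle. Levels are CPM, a gene's counts scaled to a common library total, after trimmed-mean scaling over the 24 libraries.

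The tissue labels were checked against marker genes. Proximal tubule markers summed to between 8156 and 14944 CPM in kidney and to at most 94.2 CPM in any other library. Cardiomyocyte markers summed to at least 46393 CPM in left ventricle and to at most 683.8 CPM elsewhere, and skeletal fibre markers to at least 123654 CPM in skeletal muscle and to at most 953.2 CPM elsewhere. The highest level of Myh6, the heart myosin heavy chain, in a skeletal muscle library was 0.902% of its left ventricular mean (86-week replicate 17), and Umod, the uromodulin gene of the kidney, reached 1.17% of its kidney mean in the muscle of 16.5-week replicate 19. The part that such carried-over RNA plays in the values below was not tested.

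A different Slc38 gene led in each tissue when levels were divided by exon length. That length counts every annotated exon base of a gene over all its transcripts, from 4144 for Slc38a7 to 17236 for Slc38a1. The order of the genes depends on this measure. In kidney it was Slc38a10, a carrier reported to move glutamine, glutamate and aspartate in mouse brain, at 20.9 ± 1.88 CPM per exon kilobase (SD, n = 8). In left ventricle Slc38a2 stood at 14.3 ± 2.58, Slc38a10 at 12.1 ± 1.40 and Slc38a3 at 10.99 ± 1.61 CPM per exon kilobase (SD, n = 8 each), and these 3 neighbours lay within about 1 SD of the next. In skeletal muscle Slc38a4 led at 23.4 ± 7.08 and Slc38a2 followed at 11.4 ± 1.38 CPM per exon kilobase (SD, n = 8 each). Without division by length they were close there, at 99.6 ± 30.2 and 101.1 ± 12.2 CPM.

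Below Slc38a2, Slc38a3 and Slc38a10 in every tissue came Slc38a7, the lysosomal exporter, at 2.84 ± 0.313 in kidney, 2.58 ± 0.425 in left ventricle and 1.66 ± 0.224 CPM per exon kilobase in skeletal muscle (SD, n = 8 each). Slc38a9, the arginine sensor, stood at 1.39 ± 0.102 in kidney, 1.22 ± 0.0494 in left ventricle and 1.04 ± 0.115 CPM per exon kilobase in skeletal muscle. Its exon length is 16704 bases, and in mean CPM it lay above Slc38a7 in each tissue. Slc38a11, a member with no settled role, was lowest in every tissue, between 0.176 and 0.263 CPM per exon kilobase. As a guide to background, 1134 olfactory receptor genes, which these tissues are not known for, had a 95th percentile of 0.242 in kidney, 0.286 in left ventricle and 0.335 CPM per exon kilobase in skeletal muscle. Slc38a11 lay below that percentile in all 3 tissues, at 0.729, 0.918 and 0.600 times it, while the other 8 genes lay above it, Slc38a1 in skeletal muscle by the least (1.33 times).

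**Figure D1:**
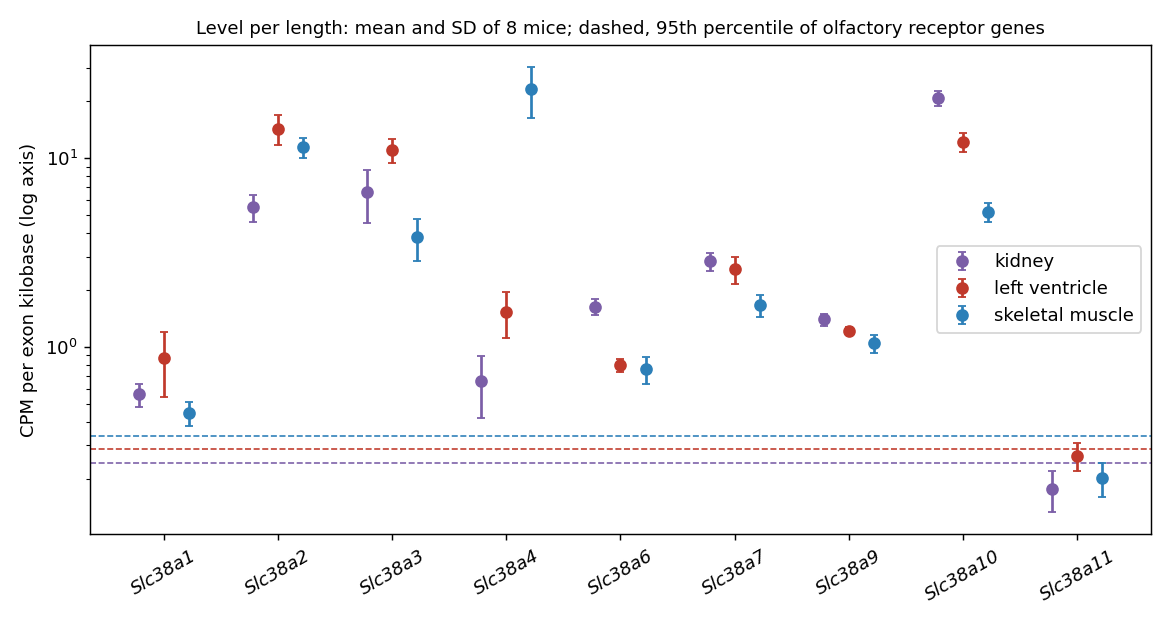
Mean level of each Slc38 gene in kidney, left ventricle and skeletal muscle, in CPM per exon kilobase on a log axis, with bars for the SD over 8 mice and dashed lines for the 95th percentile of olfactory receptor genes in each tissue. Slc38a10 leads in kidney at 20.9, Slc38a2 in left ventricle at 14.3 and Slc38a4 in skeletal muscle at 23.4, and the Slc38a11 means lie under the dashed lines of their tissues.

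Slc38a1, Slc38a2 and Slc38a4 lie on the minus strand of chromosome 15 in GRCm38, at chr15:96571418-96642913 for Slc38a1, chr15:96687392-96699730 for Slc38a2 and chr15:96994820-97055956 for Slc38a4, and Slc38a10 lies at chr11:120103960-120151346, also on the minus strand. Start regions are shown for Slc38a10, Slc38a2 and Slc38a4 because these are the members with the highest level per length in kidney, left ventricle and skeletal muscle. Each sequence is RefSeq's (GRCm38.p6, minus strand), 250 bases before to 50 bases after an annotated start, written 5′ to 3′ with every CG pair in capitals. For Slc38a4 the first of 3 annotated starts is given.
Slc38a10, chr11:120151302-120151601: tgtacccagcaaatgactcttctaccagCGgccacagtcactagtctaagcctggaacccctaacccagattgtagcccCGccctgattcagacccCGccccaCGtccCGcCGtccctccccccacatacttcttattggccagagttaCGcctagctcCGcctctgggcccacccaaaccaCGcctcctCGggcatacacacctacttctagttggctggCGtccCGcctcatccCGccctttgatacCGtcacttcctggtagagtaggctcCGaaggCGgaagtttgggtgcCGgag
Slc38a2, chr15:96699679-96699978: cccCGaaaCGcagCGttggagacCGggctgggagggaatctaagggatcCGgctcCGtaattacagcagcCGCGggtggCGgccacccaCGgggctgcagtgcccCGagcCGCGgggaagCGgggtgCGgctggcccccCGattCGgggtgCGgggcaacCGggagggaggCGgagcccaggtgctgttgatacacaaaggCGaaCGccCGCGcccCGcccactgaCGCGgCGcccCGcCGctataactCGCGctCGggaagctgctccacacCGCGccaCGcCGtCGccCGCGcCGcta
Slc38a4, chr15:97055907-97056206: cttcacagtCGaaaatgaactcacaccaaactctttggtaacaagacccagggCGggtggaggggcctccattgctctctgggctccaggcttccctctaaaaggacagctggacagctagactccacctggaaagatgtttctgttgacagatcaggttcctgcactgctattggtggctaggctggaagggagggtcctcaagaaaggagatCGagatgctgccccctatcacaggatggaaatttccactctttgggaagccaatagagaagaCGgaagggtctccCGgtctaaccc
The Slc38a2 region holds 41 CG pairs, more than 96.5% of the 32851 start regions in the RefSeq table, the Slc38a10 region holds 17 and the Slc38a4 region 5, against a median of 7 over all regions. Slc38a4 had 5 CG pairs at each of its 3 annotated starts, the lowest count among the 7 members found in the table. Slc38a6 had 26, Slc38a9 and Slc38a11 16 each, and Slc38a7 10, while Slc38a1 and Slc38a3 were not matched. The amino acid response motif TGATGNAA, searched on both strands, was in none of the members' regions and in 3.97% of all regions. Its absence says only that these letters are not in these windows.

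Kidney held less Slc38a1, Slc38a2, Slc38a3, Slc38a4 and Slc38a11 than left ventricle and more Slc38a6 and Slc38a10. Slc38a11 lay below the olfactory receptor percentile in both tissues. Of the 9 members 7 passed an adjusted p under 0.05 (edgeR quasi-likelihood test, Benjamini-Hochberg adjustment over all genes tested), 2 higher and 5 lower in kidney, where 33.3% of all genes tested passed. Kidney over skeletal muscle gave 8 of 9, 6 higher and 2 lower, against 42.7% of all genes tested. Left ventricle over skeletal muscle gave 8 of 9, 7 higher and 1 lower, against 26.3% of all genes tested, but 5 to 6 of 9 whenever 1 mouse was left out and 3 of 9 in 86-week mice alone. The members' median log2 difference was −0.57 in kidney over left ventricle, 0.42 in kidney over skeletal muscle and 0.39 in left ventricle over skeletal muscle, beside −0.094, −0.23 and −0.12 over all genes tested.

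**Figure D2:**
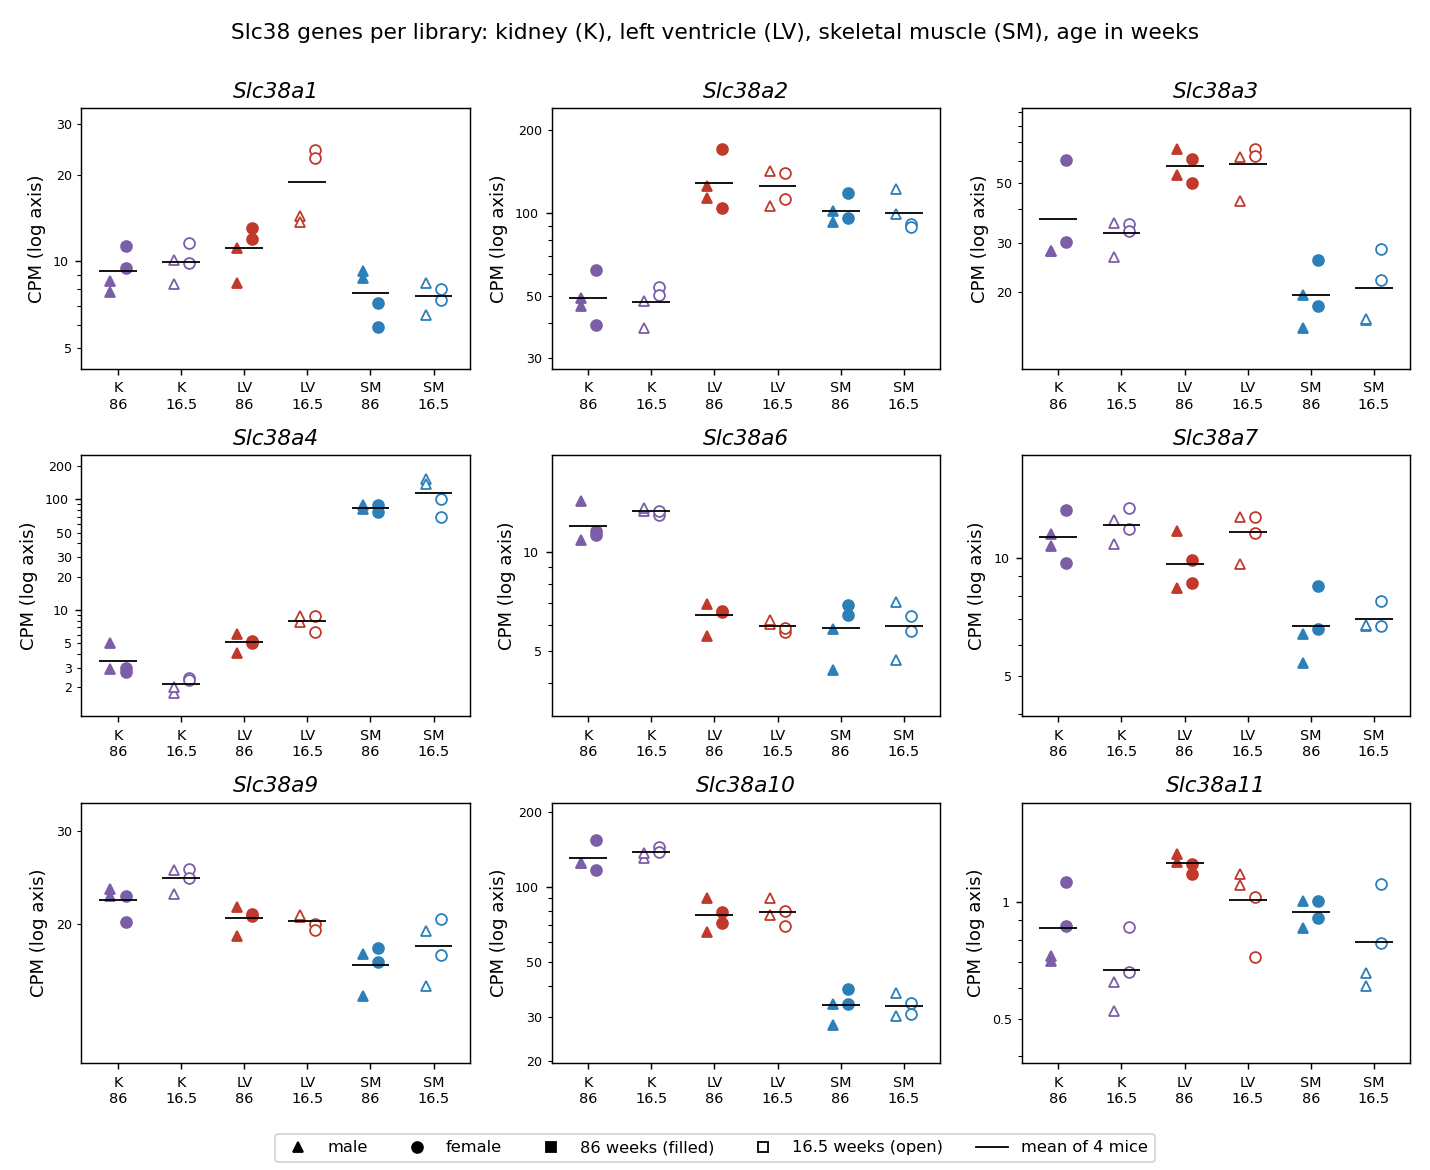
Level of each Slc38 gene in every library, in CPM on a log axis, for kidney (K), left ventricle (LV) and skeletal muscle (SM) at 86 weeks (filled) and 16.5 weeks (open), with triangles for males, circles for females and a line at the mean of 4 mice. Slc38a4 separates skeletal muscle (68.9 to 153.7 CPM) from left ventricle and kidney (at most 8.87 CPM), and in left ventricle the Slc38a1 values at 86 weeks (8.38 to 13.0 CPM) lie below those at 16.5 weeks (13.7 to 24.4 CPM).

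Slc38a4, the system A carrier best known from liver and placenta, had the widest tissue range. Its lowest, median and highest levels over 8 mice were 1.80, 2.59 and 5.04 CPM in kidney, 4.11, 6.22 and 8.87 CPM in left ventricle, and 68.9, 88.98 and 153.7 CPM in skeletal muscle. The lowest muscle library thus lay above every kidney and left ventricular library, and kidney and left ventricle overlapped. The log2 difference was −5.17 ± 0.14 for kidney over skeletal muscle, −3.92 ± 0.13 for left ventricle over skeletal muscle and −1.25 ± 0.12 for kidney over left ventricle (SE; edgeR adjusted p = 6.75e-20, 1.34e-17 and 4.59e-09). The last of these was −0.48 in 86-week mice alone (adjusted p = 0.0636) and −1.89 in 16.5-week mice alone. This split by age contains the left ventricular age values, so nothing is read from it. The difference between the ages in this comparison was not tested.

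Slc38a2, the system A carrier that cells raise when amino acids run short, was lowest in kidney. It had 38.3, 48.5 and 62.4 CPM (lowest, median and highest of 8 mice) in kidney, 103.7, 119.1 and 170.4 CPM in left ventricle, and 88.9, 97.6 and 121.6 CPM in skeletal muscle. Every kidney library lay below every library of the other 2 tissues, which overlapped each other. The log2 difference was −1.39 ± 0.12 for kidney over left ventricle and −1.06 ± 0.12 for kidney over skeletal muscle (SE; edgeR adjusted p = 4.30e-10 and 3.36e-08). For left ventricle over skeletal muscle it was 0.32 ± 0.11 (adjusted p = 0.0384), and that call held in 1 of 8 fits without 1 mouse each.

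Slc38a1, the third system A gene, was the least abundant of that group per length in left ventricle and skeletal muscle, and in kidney stood close to Slc38a4. In mean CPM, without division by its long exon length, it lay above Slc38a4 in kidney and left ventricle. It ran at 7.85, 9.68 and 11.6 CPM in kidney, 8.38, 13.4 and 24.4 CPM in left ventricle, and 5.90, 7.69 and 9.26 CPM in skeletal muscle (lowest, median and highest of 8 mice). All 3 ranges overlapped. Left ventricle exceeded skeletal muscle by 0.89 ± 0.091 on the log2 scale and kidney was below left ventricle, at −0.57 ± 0.090 (SE; edgeR adjusted p = 1.98e-08 and 1.33e-05). In 86-week mice alone they were 0.43 (adjusted p = 0.0622) and −0.14 (adjusted p = 0.668), and in 16.5-week mice alone 1.28 and −0.87. This split by age contains the left ventricular change on which the family was chosen, so nothing is read from it. The difference between the ages was not tested. Kidney over skeletal muscle was 0.33 ± 0.091 (adjusted p = 0.00499), missed the threshold without 16.5-week replicate 20 (adjusted p = 0.0642), and turned to −0.10 under upper quartile scaling.

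Slc38a3, the system N carrier, was highest in left ventricle rather than in kidney. Its lowest, median and highest levels were 26.7, 31.9 and 60.5 CPM in kidney, 42.7, 61.3 and 66.4 CPM in left ventricle, and 14.7, 18.7 and 28.6 CPM in skeletal muscle (8 mice each). Left ventricle did not overlap skeletal muscle, while 1 kidney library, from the female 86-week replicate 12, reached into the left ventricular range. The log2 difference was −0.76 ± 0.13 for kidney over left ventricle, 0.80 ± 0.13 for kidney over skeletal muscle and 1.55 ± 0.13 for left ventricle over skeletal muscle (SE; edgeR adjusted p = 3.33e-05, 1.62e-05 and 8.15e-10). Without that mouse the kidney differences were −0.85 and 0.75, both past the threshold. That kidney library also had macrophage markers at 169.1 CPM, against 69.1 to 88.3 CPM in the other kidneys. It was the highest kidney for fibroblast (368.3 CPM), erythrocyte (677.4 CPM), endothelial (267.5 CPM) and distal nephron markers (5146 CPM) as well, and their part was not tested.

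Of the lysosomal pair, Slc38a7 had 9.71, 11.7 and 13.5 CPM in kidney, 8.40, 10.8 and 12.8 CPM in left ventricle, and 5.39, 6.73 and 8.50 CPM in skeletal muscle (lowest, median and highest of 8 mice). Kidney lay wholly above skeletal muscle and overlapped left ventricle. Its log2 difference was 0.78 ± 0.10 for kidney over skeletal muscle and 0.64 ± 0.10 for left ventricle over skeletal muscle (SE; edgeR adjusted p = 6.31e-07 and 2.00e-05), and 0.14 ± 0.10 for kidney over left ventricle (adjusted p = 0.322). In 86-week mice alone left ventricle over skeletal muscle gave 0.45 with adjusted p = 0.0791. That value also contains left ventricular levels at 1 age, and a difference between the ages was not tested.

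Slc38a9 means were 23.3 ± 1.71 CPM in kidney, 20.4 ± 0.825 CPM in left ventricle and 17.4 ± 1.93 CPM in skeletal muscle (SD, n = 8 each), and all 3 ranges overlapped. The log2 difference was 0.42 ± 0.078 for kidney over skeletal muscle (SE; edgeR adjusted p = 9.09e-05), though it was −0.0075 under upper quartile scaling. Left ventricle over skeletal muscle, at 0.23 ± 0.078 (adjusted p = 0.0325), held in 2 of the 8 fits that left out a mouse, and kidney over left ventricle was 0.19 ± 0.078 (adjusted p = 0.0626). An antisense gene, Gm47827, shares 182 exon bases with Slc38a9 and did not exceed 0.193 CPM in any library. The strand setting of the counting is not given in the sources used here.

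Slc38a10 stepped down from kidney through left ventricle to skeletal muscle with no overlap at either step. It had 116.9, 133.7 and 154.2 CPM in kidney, 65.8, 78.1 and 90.6 CPM in left ventricle, and 27.7, 33.8 and 38.8 CPM in skeletal muscle (lowest, median and highest of 8 mice). The step on the log2 scale was 2.01 ± 0.095 for kidney over skeletal muscle, 1.23 ± 0.093 for left ventricle over skeletal muscle and 0.78 ± 0.092 for kidney over left ventricle (SE; edgeR adjusted p = 5.60e-15, 1.11e-10 and 1.49e-07). Each of these calls held in all 8 fits that left out a mouse. The opposite-strand gene Gm11769 shares 367 exon bases with it and averaged between 0.854 and 1.12 CPM in the 3 tissues.

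Slc38a6, whose substrates are less well settled, also stood out in kidney. Its levels were 10.9, 13.1 and 14.2 CPM in kidney, 5.57, 6.14 and 6.96 CPM in left ventricle, and 4.39, 6.12 and 7.04 CPM in skeletal muscle (lowest, median and highest of 8 mice). Every kidney library was above every library of both other tissues. The log2 difference was 1.02 ± 0.097 for kidney over left ventricle and 1.09 ± 0.098 for kidney over skeletal muscle (SE; edgeR adjusted p = 3.87e-09 and 1.07e-09), and 0.070 ± 0.098 for left ventricle over skeletal muscle (adjusted p = 0.690). Slc38a11 was called lower in kidney than in left ventricle (−0.59 ± 0.14, adjusted p = 0.00201) and higher in left ventricle than in skeletal muscle (0.39 ± 0.15, adjusted p = 0.0488; SE). That second call was lost in all 8 fits that left out a mouse and with the mouse as a replicate block (adjusted p = 0.0696), at levels between 30 and 114 counts per library. Mean Slc38a11 levels were below the olfactory receptor percentile, which was itself 0.242 in kidney and 0.286 CPM per exon kilobase in left ventricle. The part of background in these differences was not tested.

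Upper quartile scaling moved the median of all genes by −0.26 in kidney over left ventricle, −0.42 in kidney over skeletal muscle and −0.16 in left ventricle over skeletal muscle. Genes called higher and lower then numbered 6592 and 13496, 7150 and 23732, and 5828 and 9230, beside 9015 and 6609, 10339 and 9738, and 7159 and 5183 under trimmed-mean scaling.

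With age, 2 members lay lower in every 86-week left ventricle than in every 16.5-week one, Slc38a1 and Slc38a4. Slc38a1 had 11.1 and 8.38 CPM in males and 11.9 and 13.0 CPM in females at 86 weeks, against 14.4 and 13.7 CPM in males and 24.4 and 22.9 CPM in females at 16.5 weeks. The 2 young females stood above all others, and the highest aged value, in a female, was below the lowest young one, in a male. The log2 change was −0.73 ± 0.12 (SE) and lay between −0.85 and −0.66 as each of the 8 mice was left out in turn. This change was among the values that led to the choice of the family. Slc38a1 is the 1 of 9 members past the threshold here, beside 0.0741% of all genes tested, and since the family was chosen on it nothing is read from that count.

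Slc38a4 had 6.10 and 4.11 CPM in male and 5.04 and 5.28 CPM in female left ventricles at 86 weeks, against 7.76 and 8.87 CPM in males and 8.84 and 6.33 CPM in females at 16.5 weeks. Its 2 age groups did not overlap either, and the log2 change was −0.63 ± 0.15 (SE). Among all genes tested in left ventricle 2.09% had age groups without overlap. The other 7 members overlapped, with log2 changes between −0.27 (Slc38a7) and 0.32 (Slc38a11). Marker lists of ventricular cell types had overlapping ranges at both ages. Cardiomyocyte markers summed to 46393 to 63979 CPM at 86 weeks and 54696 to 66115 CPM at 16.5 weeks, macrophage markers to 138.3 to 205.3 and 127.8 to 158.0 CPM in the same order, and fibroblast markers to 408.9 to 768.2 and 509.9 to 712.5 CPM. No marker of these lists was at 0 in all libraries of a group, and the lists' part in the Slc38 values was not tested.

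In kidney and skeletal muscle no member passed the age test. In kidney 0 of 9 were called by edgeR, beside 0.112% of all genes tested, 1 of the 9 had an unadjusted p under 0.05, and DESeq2 also called 0. In skeletal muscle 0 of 9 were called, beside 0.0183% of all genes tested, again with 1 unadjusted p under 0.05 and 0 calls by DESeq2. Slc38a4 was that 1 gene in both tissues, with values of opposite sign. The age groups overlapped for all 9 members in skeletal muscle, where 2.71% of all genes tested did not overlap.

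In kidney Slc38a4 had 2.94 and 5.04 CPM in males and 3.02 and 2.74 CPM in females at 86 weeks, against 1.80 and 2.00 CPM in males and 2.45 and 2.34 CPM in females at 16.5 weeks. The age groups did not overlap, as for 3.52% of all genes tested in kidney, and the male 86-week replicate 17 stood highest. The log2 change was 0.70 ± 0.19 (SE; edgeR adjusted p = 0.306), and 0.47 without that mouse. T and B cell markers in kidney, 7 genes with none at 0 throughout a group, summed to 10.9 to 13.4 CPM at 86 weeks and 8.08 to 9.27 CPM at 16.5 weeks, without overlap, and their part was not tested. In skeletal muscle Slc38a4 had 88.9 and 82.4 CPM in males and 89.0 and 76.5 CPM in females at 86 weeks, against 153.7 and 137.5 CPM in males and 68.9 and 99.9 CPM in females at 16.5 weeks. There the groups overlapped, the 2 young males stood highest, and the log2 change was −0.37 ± 0.15 (SE; edgeR adjusted p = 0.879).

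Whether the age change differed between kidney and skeletal muscle was tested in the fit of all 24 libraries. For Slc38a4 the difference, kidney minus skeletal muscle, was 1.06 ± 0.23 on the log2 scale (SE; edgeR adjusted p = 0.185). It passed without 86-week replicate 14 (1.26, adjusted p = 0.0309), and over the 8 fits that left out a mouse it ranged from 0.82 to 1.26. None of the 9 members passed by edgeR, beside 0.0255% of all genes tested, and 1 had an unadjusted p under 0.05. The other 8 differences ran from −0.13 (Slc38a1) to 0.18 (Slc38a3).

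The remaining members had age changes that did not pass the test in either tissue. In kidney their log2 changes ran from −0.11 for Slc38a6 to 0.39 for Slc38a11, with errors from 0.085 to 0.22, and in skeletal muscle from −0.084 for Slc38a9 to 0.30 for Slc38a11, with errors from 0.11 to 0.24. Slc38a2, the carrier that responds to amino acid supply, had 0.090 ± 0.12 in kidney, 0.038 ± 0.15 in left ventricle and 0.063 ± 0.12 in skeletal muscle (SE). Slc38a11 was the 1 member whose change was positive and above 0.25 in all 3 tissues, at 0.39 ± 0.22 in kidney, 0.32 ± 0.23 in left ventricle and 0.30 ± 0.24 in skeletal muscle (SE). Its mean lay below the olfactory receptor percentile in all 3 tissues, at 30 to 114 counts per library.

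**Figure D3:**
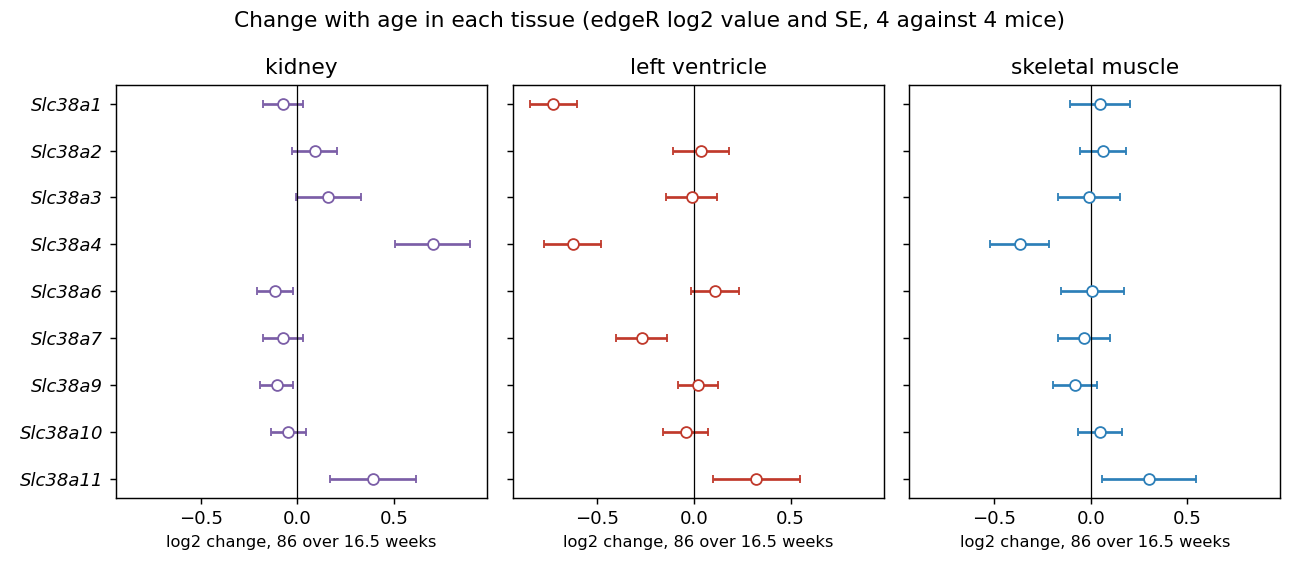
Log2 change with age (86 over 16.5 weeks) of each Slc38 gene in kidney, left ventricle and skeletal muscle, with bars for the SE of the edgeR fit to 4 against 4 mice. Slc38a4 lies at 0.70 in kidney, −0.63 in left ventricle and −0.37 in skeletal muscle, and Slc38a1 at −0.73 in left ventricle. No point in the kidney and skeletal muscle panels is past the threshold, and the left ventricular points are drawn without a mark for it.

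Slc38a1 was also lower in male than in female left ventricles. At each age both males lay below both females, at 11.1 and 8.38 against 11.9 and 13.0 CPM at 86 weeks and at 14.4 and 13.7 against 24.4 and 22.9 CPM at 16.5 weeks. Over both ages the sexes overlapped, since the young males lay above the aged females. The log2 difference, male over female, was −0.58 ± 0.12 (SE; edgeR adjusted p = 0.0276). Slc38a1 was the 1 of 9 members called, beside 0.871% of all genes tested. The same libraries and fit gave the age change on which the family was chosen, so this count is not independent of that choice. The call was lost under DESeq2 (adjusted p = 0.0533), limma-voom (0.0852) and 4 other settings, and in 5 of 8 fits without 1 mouse each, with a difference between −0.70 and −0.51 in all 8.

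In kidney Slc38a1 had 7.85, 8.51, 8.37 and 10.1 CPM in males against 9.50, 11.3, 9.86 and 11.6 CPM in females, and in skeletal muscle 9.26, 8.79, 8.43 and 6.53 CPM in males against 7.19, 5.90, 8.03 and 7.34 CPM in females (86-week mice before 16.5-week mice). The sexes overlapped in both tissues. The log2 differences were −0.30 ± 0.11 in kidney and 0.26 ± 0.15 in skeletal muscle (SE; edgeR adjusted p = 0.115 and 0.657). A joint test of whether the sex difference of Slc38a1 varied between the 3 tissues gave adjusted p = 0.0604. It passed under upper quartile scaling (0.0137), a filter of 1 CPM in at least 4 libraries (0.00290) and without mitochondrially encoded genes (0.0440). It did not pass with the mouse as a replicate block (0.129) or in any of 8 fits without 1 mouse each (0.0517 to 0.333). None of the 9 members passed by edgeR, beside 1.90% of all genes tested, and 1 had an unadjusted p under 0.05.

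The ranges of the sexes overlapped for all 9 members in each tissue. Of all genes tested, 10.2% in kidney, 3.45% in left ventricle and 6.02% in skeletal muscle did not overlap, and 0 of 9 is near those shares. In kidney 0 of 9 members were called for sex by edgeR and by DESeq2, beside 7.58% of all genes tested, and 2 had an unadjusted p under 0.05. In skeletal muscle 0 of 9 were called by both tools, beside 1.36% of all genes tested, and 2 had an unadjusted p under 0.05. Slc38a3 had lower means in males in both tissues, 29.6 ± 4.06 against 39.9 ± 13.9 CPM in kidney and 16.5 ± 2.08 against 23.6 ± 4.72 CPM in skeletal muscle (male against female, SD, n = 4 each), with log2 differences of −0.44 ± 0.17 and −0.47 ± 0.16 (SE; edgeR adjusted p = 0.173 and 0.309). Without 86-week replicate 12 the kidney difference was −0.17. Slc38a4 in skeletal muscle was at 115.6 ± 35.3 CPM in males and 83.6 ± 13.7 CPM in females (SD, n = 4 each), a difference of 0.46 ± 0.15 (SE; adjusted p = 0.272). Thick ascending limb and distal nephron markers summed to 3106 to 3923 CPM in male and 4063 to 5146 CPM in female kidneys, without overlap, and their part in the kidney values was not tested.

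**Figure D4:**
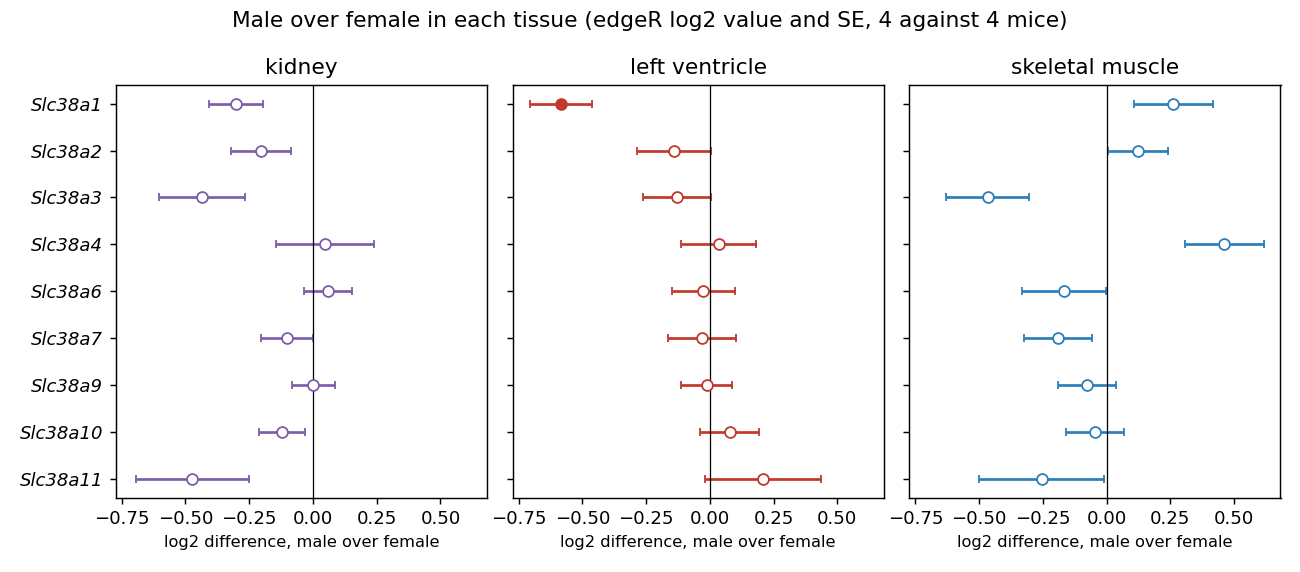
Log2 difference, male over female, of each Slc38 gene in kidney, left ventricle and skeletal muscle, with bars for the SE of the edgeR fit to 4 against 4 mice and a filled point for an adjusted p under 0.05. Slc38a1 in left ventricle, at −0.58, is the 1 filled point, and Slc38a1 lies at −0.30 in kidney and 0.26 in skeletal muscle.

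Other genes of amino acid handling also differed between the tissues. A list of 21 genes covered neutral amino acid carriers outside the family, mainly of the plasma membrane, with a carrier subunit and a taurine carrier among them. Of these carriers 18 passed in kidney over left ventricle, 15 higher and 3 lower, where 33.3% of all genes tested passed. In kidney over skeletal muscle 19 passed, 14 higher and 5 lower, where 42.7% of all genes tested passed. Carriers of the kidney tubule, such as Slc6a19, were put on the list, so these counts are not independent of its choice. Slc6a19, the main apical carrier of neutral amino acids in the proximal tubule, averaged 146.7 ± 38.7 CPM in kidney, 2.05 ± 0.291 CPM in left ventricle and 2.24 ± 0.505 CPM in skeletal muscle (SD, n = 8 each). Slc7a8, a basolateral exchanger, averaged 95.5 ± 35.2 CPM in kidney, 3.57 ± 0.397 CPM in left ventricle and 10.6 ± 1.92 CPM in skeletal muscle. Of 13 enzymes of glutamine and glutamate, all 13 passed in kidney over left ventricle (8 higher, 5 lower) and 10 in kidney over skeletal muscle (6 higher, 4 lower). In kidney over left ventricle the smallest p-values were those of Got1, the cytosolic aspartate aminotransferase, at −2.84 ± 0.094, and Pck1, an enzyme of glucose formation, at 9.52 ± 0.41 (log2 difference, SE). In left ventricle over skeletal muscle 13 of the 21 carriers passed, 6 higher and 7 lower, and 8 of the 13 enzymes, 4 each way, beside 26.3% of all genes tested. The carriers' median log2 difference was 2.55 in kidney over left ventricle, 2.64 in kidney over skeletal muscle and −0.18 in left ventricle over skeletal muscle, and the enzymes' was 0.70, 0.15 and 0.20, beside the medians over all genes given above.

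A list of 24 genes covered lysosomal amino acid sensing and mTORC1, the pathway that Slc38a9 reports to. Of these 16 passed in kidney over left ventricle (10 higher, 6 lower), 18 in kidney over skeletal muscle (11 higher, 7 lower) and 13 in left ventricle over skeletal muscle (9 higher, 4 lower), beside 33.3%, 42.7% and 26.3% of all genes tested. Sesn2, a leucine-binding inhibitor of the pathway and the gene with the smallest p, was at 2.57 ± 0.10 in kidney over left ventricle (log2 difference, SE). Of 18 genes of the ATF4 response, the program through which cells answer amino acid shortage, 15, 13 and 11 passed in the same 3 comparisons, against the same shares of all genes, with 7, 7 and 6 of them higher. The median log2 difference of the sensing genes was 0.16, 0.18 and 0.021 and that of the ATF4 genes −0.013, 0.085 and 0.094. By age 0 genes of any of the 4 lists passed in any tissue by edgeR, and between 0 and 6 genes of a list had an unadjusted p under 0.05 in a tissue. The lowest adjusted p among them was 0.154, for Gdf15, a stress cytokine, in kidney (0.82 ± 0.18), and none passed in the test of kidney against skeletal muscle. By sex in kidney 7 of 21 carriers, 4 of 13 enzymes, 5 of 24 sensing genes and 4 of 18 ATF4 genes passed, with 6, 3, 3 and 2 of them lower in males, beside 7.58% of all genes tested. Slc7a8 was at −0.91 ± 0.15 and Mtor, the kinase of mTORC1, at 1.04 ± 0.11 (log2, male over female, SE; adjusted p = 0.00101 and 3.48e-05).

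Likeness of pattern was measured as Pearson's r of log2 CPM over the 24 libraries after each tissue's mean was taken off, among 16023 genes with a mean of at least 1 CPM. Libraries share depth and mouse, so the values are a description. Slc38a10 had the closest partners, Sptbn1 (r = 0.905) and Atp1b3 (0.904), followed by Slc38a9 with Pitpnc1 (0.862) and Slc38a7 with Erp29 (0.845). Slc38a1 was most like Hcn2 (0.731) and Slc38a4 most like Ess2 (0.687). Within the family the highest values were 0.759 for Slc38a7 with Slc38a10 and 0.594 for Slc38a9 with Slc38a10, and the lowest was −0.376 for Slc38a1 with Slc38a11.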

How the data were processed

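The members and gene lists were chosen with earlier results of these data known. The authors deposited whole-number read counts per gene for 24 libraries, and per the submitters' processing notes reads were processed with STAR 2.7.6a and StringTie 2.1.1 on GRCm38.p6. How the counts were made is not given in the sources used here. Of 55401 gene IDs 54349 matched GENCODE release M21, which gave exon lengths. Tests were edgeR 4.0.16 quasi-likelihood F-tests in R 4.3.3, with TMM normalisation, the filterByExpr filter and Benjamini-Hochberg adjustment over all genes tested (46984 for tissues, 43711 to 44572 within a tissue), threshold 0.05. Tissues were compared in a fit of all 24 libraries with a mean for each of 12 groups of tissue, age and sex. The age and sex contrasts came from fits to the 8 libraries of a tissue with a term for each, so values printed as CPM, scaled over 24 libraries, can differ slightly from the fitted changes. All members were named. Genes named from a list are among the 4 with the smallest p in that comparison.

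DESeq2 1.42.0, limma 3.58.1 (voom), other scalings and filters, and fits without each mouse were alternatives. Mouse names recur in the 3 tissues, so the same animal pairs its libraries. The correlation of paired deviations had a median of 0.117 for left ventricle with skeletal muscle, 0.0153 for left ventricle with kidney and 0.00794 for skeletal muscle with kidney. On simulated counts the tissue fits recovered 89 to 93% of genes changed 2-fold, the age fits 66 to 80%, the sex fits 62 to 67%, the age difference of kidney and skeletal muscle 40% and the joint sex test 49%. Genes with a low mean count were not among those changed, and libraries were drawn without pairing by mouse. In the tissue simulations all other genes had equal means in the 3 tissues, unlike these data, so effects of scaling were not covered. Between 6 and 20 calls per comparison were false. They were 20 of 199 calls for age in skeletal muscle and 15 of 177 for sex in left ventricle. The false share lay below the adjusted p threshold for left ventricle over skeletal muscle (6 of 193) and for sex in kidney (8 of 173). In every other comparison it lay above that threshold, so the threshold let through more false calls there than it names.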

Additional observations from a re-analysis of the deposited data

Results flagged for a closer look

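In 54 sets of 4 libraries (9 genes, 3 tissues, 2 ages) 3 held 1 value far from the others, and chance gives about 1 in 20 such sets. Slc38a3 stood at 60.5 CPM in the kidney of the female 86-week replicate 12, against 28.1 to 30.4 CPM in the other 86-week kidneys. The same library had macrophage markers at 169.1 CPM (77.2 to 88.3 CPM in the others), cardiomyocyte markers at 58.1 CPM (23.1 to 29.3 CPM) and proximal tubule markers at 11580 CPM (8156 to 13857 CPM). Their part in the Slc38a3 value was not tested. Slc38a4 stood at 5.04 CPM in the kidney of the male 86-week replicate 17, against 2.74 to 3.02 CPM in the other 86-week kidneys. Slc38a7 stood at 7.80 CPM in the skeletal muscle of the female 16.5-week replicate 14, against 6.73 to 6.75 CPM in the other 16.5-week muscles.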

How the results depend on the processing

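Upper quartile scaling reversed kidney over skeletal muscle for Slc38a1 (−0.10) and Slc38a9 (−0.0075). In the same comparison Slc38a11 was at −0.19 in the main fit (edgeR adjusted p = 0.302). It became called under upper quartile scaling (−0.62, adjusted p = 0.00160) and a filter of 1 CPM in at least 4 libraries (−0.40, adjusted p = 0.0226). Calls in kidney over left ventricle numbered 4 in 86-week mice alone. Calls in left ventricle over skeletal muscle numbered 5 under upper quartile scaling, a filter of 1 CPM in at least 4 libraries and 16.5-week mice alone, and 3 in 86-week mice alone. The counts for 1 age alone contain left ventricular age values, so no difference between the ages is read from them. The left ventricular age count of 1, fixed by the choice of the family and given no weight, was 0 with RLE size factors, without a low-count filter and without the covariate. The left ventricular sex count of 1 became 0 under limma-voom, DESeq2, a filter of 1 CPM, RLE size factors, no covariate and no low-count filter. The joint sex test gave 1 under upper quartile scaling, a filter of 1 CPM and without mitochondrially encoded genes. Leaving out 1 mouse at a time gave 7 to 8 calls in kidney over left ventricle and in kidney over skeletal muscle, 5 to 6 in left ventricle over skeletal muscle, and 0 to 1 for the left ventricular age and sex counts, for sex in kidney and for the age difference of kidney and skeletal muscle. The single kidney sex call was Slc38a2 without 86-week replicate 11 (adjusted p = 0.0340). With the mouse as a replicate block left ventricle over skeletal muscle gave 7 calls, losing Slc38a11 (adjusted p = 0.0696), and no other call changed.

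Over all genes, age calls were 33 in left ventricle (73 by DESeq2, 18 unfiltered), 50 in kidney (231 by DESeq2, 1 unfiltered, 0 without covariate) and 8 in skeletal muscle (89 by DESeq2, 45 in the 24-library fit, 0 unfiltered, 1 without covariate). Sex calls were 388 in left ventricle (22 by limma-voom, 18 at 1 CPM, 725 unfiltered, 695 in the 24-library fit) and 594 in skeletal muscle (297 at 1 CPM, 918 unfiltered, 1090 in the 24-library fit). The joint sex test called 893 (1763 at 1 CPM), kidney over skeletal muscle 20077 (30882 under upper quartile scaling), and the age difference of kidney and skeletal muscle 12 (46 by DESeq2, 20 at 1 CPM, 7 by limma-voom, 6 with the replicate block). In kidney by sex upper quartile scaling gave 2903 higher and 1302 lower, beside 1680 and 1700. Counts limit Slc38a11 most, at 30 to 114 per library. The cause of each change was not tested.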

Other observations

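Slc38a5, an X-linked system N carrier outside the 9 genes and chosen here after its values were seen, lay lower in every male than in every female library of each tissue. Males had 0.347 to 0.407 CPM and females 0.593 to 0.850 CPM in kidney, 0.386 to 0.436 and 0.750 to 1.07 CPM in left ventricle, and 0.283 to 0.589 and 0.807 to 0.900 CPM in skeletal muscle. Sexes without overlap occurred in 10.2%, 3.45% and 6.02% of genes tested in the same 3 tissues. The log2 difference, male over female, was −0.93 ± 0.25 in kidney, −1.24 ± 0.28 in left ventricle and −0.89 ± 0.27 in skeletal muscle (SE; edgeR adjusted p = 0.0344, 0.0394 and 0.201). The calls held in 2 of the 8 fits without a mouse in kidney and in 0 of the 8 in left ventricle, where limma-voom gave adjusted p = 0.0968. Upper quartile scaling lost both (0.0646 in kidney, 0.0502 in left ventricle), and in the 24-library fit skeletal muscle passed as well (0.0444). Its mean level was 1.01, 1.05 and 0.861 times the 95th percentile of olfactory receptor genes in kidney, left ventricle and skeletal muscle.

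Slc38a8, the other gene outside the 9, averaged 1.24 ± 0.254 CPM in kidney, 1.61 ± 0.341 CPM in left ventricle and 2.05 ± 0.273 CPM in skeletal muscle (SD, n = 8 each). It was lower in kidney than in skeletal muscle, at −0.73 ± 0.14 (SE; edgeR adjusted p = 1.18e-04), a call kept in all 8 fits without a mouse. Its mean level was only 1.47, 1.61 and 1.75 times the olfactory receptor percentile in kidney, left ventricle and skeletal muscle. That percentile rose in the same order, from 0.242 through 0.286 to 0.335 CPM per exon kilobase, and the part of background in this difference was not tested.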
